A study of Homo sapiens with 12 samples.

Results

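The 10 genes described here encode secreted inflammatory cytokines and chemokines: IL6, LIF, IL8 (also written CXCL8), CXCL1, CXCL2, CXCL3, CXCL5, CCL2, CCL5 and CCL20. They were found by symbol among 57773 genes, and each symbol matched 1 row. The set was chosen by symbol with earlier results of these data in view: IL6 and CCL5 were already known to be high with siGOLM1-2. Values for siGOLM1-2 against control, and for siGOLM1-1 against siGOLM1-2, are therefore given for these 10 genes as a description, with no p, and nothing is read from how many of them were called there. Of the 10 genes, 9 passed the filter on low counts, which left 17532 genes; CCL20 did not pass.

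The cells were A549, an established human lung adenocarcinoma line. RNA was taken 72 h after reverse transfection with siRNA at 50 nM, and 4 libraries, labelled as biological replicates, were sequenced in each of 3 groups. The control group received a non-targeting siRNA, and the other groups received siGOLM1-1 or siGOLM1-2, which target GOLM1, the gene of a Golgi membrane protein. All 3 groups carried an siRNA and the lipid reagent Lipofectamine RNAiMAX, and no untransfected cells were analysed here. The comparisons with control ask how each siRNA against GOLM1 changed the transcripts. The comparison between the siRNAs asks whether their results differed.

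Interleukin-6 and LIF signal through the shared receptor subunit gp130 to JAK kinases and the transcription factor STAT3. IL8 and the CXCL1, CXCL2, CXCL3 and CXCL5 chemokines attract neutrophils through CXCR2, and IL8 also uses CXCR1. CCL2 attracts monocytes through CCR2, CCL5 attracts T cells and other leukocytes, and CCL20 attracts cells that carry CCR6. Many of these genes are textbook targets of NF-kB, and several of their mRNAs are short-lived because decay factors bind AU-rich or stem-loop elements in them.

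Levels are given as CPM, the counts scaled to library size in edgeR with TMM factors. Library totals ran from 41.6 M to 71.3 M counts. GOLM1 was at 344 to 378 CPM in control, 37.5 to 38.9 with siGOLM1-1 and 44.5 to 53.4 with siGOLM1-2, a log2 fold change of -3.25 (SE 0.07, adjusted p = 4.97e-12) and -2.95 (SE 0.07, adjusted p = 1.57e-11). The control libraries stood apart in pairs: FKBP5, which glucocorticoid receptor induces, averaged 22.7 CPM in replicates 1 and 2 and 223 in replicates 3 and 4. PER1, another such gene, averaged 11.1 and 108 CPM. The fold changes of the tested genes of the set were therefore also computed with each pair of controls alone. The A549 epithelial keratin and adhesion genes summed to 6660 to 9750 CPM in control, 5350 to 5750 with siGOLM1-1 and 6440 to 6980 with siGOLM1-2. Every siGOLM1-1 library thus lay below every library of the other groups. CDKN2A, which A549 cells have lost, was at 0 in all 12 libraries. Of 12 leukocyte markers, 5 were at 0 throughout control, 4 throughout siGOLM1-1 and 3 throughout siGOLM1-2. Their summed level was 8.78 to 10.3 CPM in control, 12.9 to 21.4 with siGOLM1-1 and 17.2 to 21.0 with siGOLM1-2. Of the 4 leukocyte markers that could be tested, 4 rose with siGOLM1-1 (CD14, LYZ, ITGAM and CD79A) and 3 with siGOLM1-2 (CD14, LYZ and ITGAM). Over all genes tested, 23.7% rose with siGOLM1-1 and 21.8% with siGOLM1-2. PTPRC, found on all leukocytes, reached 0.0403 CPM at most, and CD3D, MS4A1 and NCR1 were at 0 in all 12 libraries. The part of these markers in the cytokine values was not tested.

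Promoter sequences are shown for IL6 and for 5 chemokine genes of chromosome 4, because kB-type letters, the kind NF-kB binds, lie shortly before each start. RefSeq's table for GRCh38.p14 held the promoters of 7 of the 10 genes, and the windows below are 80 bases long, 5′ to 3′ on the gene's own strand. Capitals mark each match to GGNNTTTCC.

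IL6: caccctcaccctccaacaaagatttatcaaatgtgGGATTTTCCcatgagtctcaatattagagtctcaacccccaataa
IL8: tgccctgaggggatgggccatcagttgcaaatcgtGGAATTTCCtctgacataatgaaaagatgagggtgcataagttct
CXCL1: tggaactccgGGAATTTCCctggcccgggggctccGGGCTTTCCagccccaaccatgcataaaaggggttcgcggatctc
CXCL2: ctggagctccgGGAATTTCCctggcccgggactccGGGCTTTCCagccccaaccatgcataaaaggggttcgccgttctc
CXCL3: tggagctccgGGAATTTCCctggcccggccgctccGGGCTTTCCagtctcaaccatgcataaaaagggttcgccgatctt
CXCL5: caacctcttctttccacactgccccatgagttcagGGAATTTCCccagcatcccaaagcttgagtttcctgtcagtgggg

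The windows lie at chr7:22727093-22727172 on the plus strand for IL6, chr4:73740443-73740522 plus for IL8, chr4:73869305-73869384 plus for CXCL1, chr4:74099204-74099283 minus for CXCL2, chr4:74038698-74038777 minus for CXCL3 and chr4:73998723-73998802 minus for CXCL5. The match began 72 bases before the start of IL6, 91 before IL8 and 90 before CXCL5. CXCL1 and CXCL3 held matches 78 and 53 bases before the start, and CXCL2 held them at 77 and 53. CCL20 had a match on the opposite strand, 79 bases before its start. All 7 promoters in the table thus held GGNNTTTCC on either strand before the start, against 1926 of 35116 promoters of that table (5.48%). The AP-1-type letters TGANTCA were found before the start in 6.57% of promoters on either strand. Among these 7 they occurred in the IL8 promoter alone, 137 bases before the start and apart from the kB-type match. Bases after the start were not searched in the 7. Aligned on the match nearest the start, the CXCL1 and CXCL3 windows were identical at 72 of 80 bases (90.0%), and CXCL1 and CXCL2 at 63 (78.8%). Many of these genes are textbook targets of NF-kB, and the CXCL1, CXCL2 and CXCL3 windows are alike. The 7 promoters are thus not independent draws, and nothing is read from their share. A match of letters is a description and not evidence of binding.

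IL6, the cytokine that drives the acute phase response, was at 0.2, 0.288, 0.212 and 0.101 CPM in control replicates 1 to 4. With siGOLM1-1 it was at 0.384, 0.527, 0.911 and 0.444 CPM. With siGOLM1-2 it was at 3.55, 3.71, 2.43 and 17.4 CPM. The 3 groups did not overlap, and siGOLM1-2 replicate 4 lay well above the rest of its group. These levels rest on 5 to 12 reads per control library, 21 to 45 with siGOLM1-1 and 124 to 875 with siGOLM1-2. The log2 fold change with siGOLM1-2 was 5.08 (SE 0.69), or 33.9-fold, and 4.02 (SE 0.34) without replicate 4. With control replicates 1 and 2 as the only controls it was 4.79, and with replicates 3 and 4 it was 5.44. In such bulk libraries, more expressing cells and more RNA per cell cannot be told apart.

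With siGOLM1-1, IL6 was 1.49 higher on the log2 scale (SE 0.77) and did not pass the test across all genes (adjusted p = 0.128, edgeR). The estimate did not move when siGOLM1-2 replicate 4 was left out of the shared fit, but its SE fell to 0.36 and the adjusted p became 0.00386. In a fit of the siGOLM1-1 and control libraries alone, IL6 also passed (adjusted p = 0.00887). Over the 21 alternatives run, the adjusted p of IL6 lay between 0.00386 and 0.402, and the interval of the difference in the shared fit was -0.05 to 3.03.

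LIF, a gp130 cytokine of the IL-6 family, was at 72.6, 78.1, 48.6 and 47.3 CPM in control. It was at 67.7, 60.9, 75.5 and 81.5 CPM with siGOLM1-1, and at 63.5, 56.7, 63.7 and 64.0 CPM with siGOLM1-2. All 3 groups overlapped, and the control libraries spanned a wider range than either siRNA group. The log2 fold change with siGOLM1-1 was 0.21 (SE 0.15, adjusted p = 0.268), with an interval of -0.09 to 0.51, and with siGOLM1-2 it was 0.01 (SE 0.15), from -0.28 with the first pair of controls to 0.39 with the other. Against control replicates 3 and 4 alone LIF passed the test with siGOLM1-1 (0.59, adjusted p = 0.00128), whereas against replicates 1 and 2 alone it was at -0.08. Its adjusted p lay between 0.00128 and 0.614 over the alternatives.

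**Figure D1:**
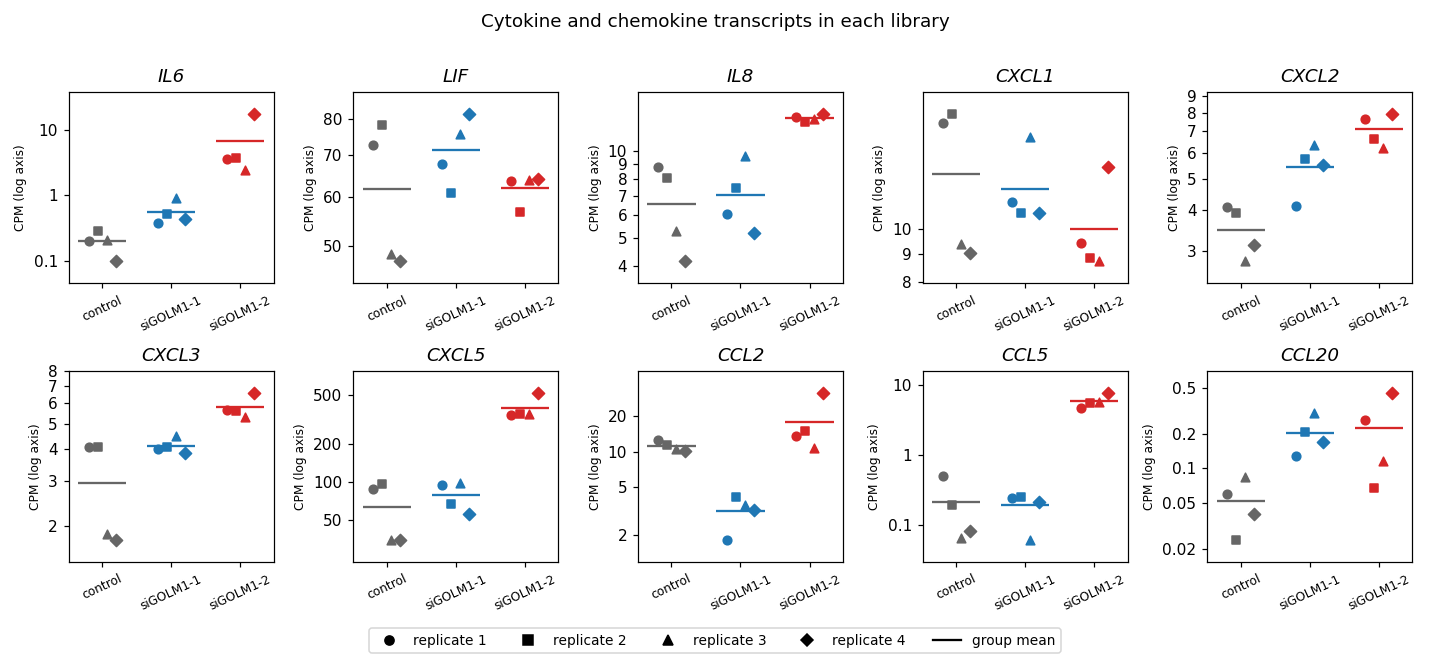
Each panel plots 1 gene, with CPM on a log axis that differs between panels, 4 libraries in each of the control, siGOLM1-1 and siGOLM1-2 groups, a marker shape for each replicate and a line at the group mean. IL6, IL8, CXCL3, CXCL5 and CCL5 sat higher in every siGOLM1-2 library than in any library of the other groups. CCL2 sat lowest with siGOLM1-1, and siGOLM1-2 replicate 4 was the highest of its group in all 10 panels.

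Among the neutrophil chemokines, CXCL5 had the largest fold change with siGOLM1-2, and CXCL1 did not follow the others. IL8 was at 8.76, 8.05, 5.29 and 4.17 CPM in control, 6.03, 7.41, 9.56 and 5.19 CPM with siGOLM1-1, and 13.1, 12.6, 12.9 and 13.4 CPM with siGOLM1-2. Its siGOLM1-2 libraries lay within a narrow band above all other libraries, while siGOLM1-1 and control overlapped. IL8 thus differed from control by 0.98 on the log2 scale with siGOLM1-2 (SE 0.22), or 1.98-fold, and by 0.10 with siGOLM1-1 (SE 0.22, adjusted p = 0.732). The siGOLM1-2 value was 0.62 with control replicates 1 and 2 and 1.47 with replicates 3 and 4. With siGOLM1-1 the value was 0.59 with control replicates 3 and 4 and -0.26 with replicates 1 and 2, and the adjusted p lay between 0.0386 and 0.974 over the alternatives.

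CXCL5 was at 87.9, 95.7, 34.6 and 34.6 CPM in control, and at 93.9, 67.2, 98.2 and 55.5 CPM with siGOLM1-1. It reached 340, 352, 347 and 518 CPM with siGOLM1-2. Control and siGOLM1-1 overlapped, and every siGOLM1-2 library was above both. With siGOLM1-2 CXCL5 was 2.62 higher on the log2 scale (SE 0.34), or 6.16-fold, and 2.08 or 3.51 with control replicates 1 and 2 or 3 and 4. With siGOLM1-1 it was 0.32 (SE 0.32, adjusted p = 0.444). With control replicates 3 and 4 as the only controls that value became 1.20 (adjusted p = 0.00226), and with replicates 1 and 2 it became -0.22. Over the alternatives its adjusted p lay between 0.00226 and 0.79.

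CXCL1 was at 15.7, 16.3, 9.40 and 9.04 CPM in control, 11.2, 10.7, 14.8 and 10.7 CPM with siGOLM1-1, and 9.44, 8.85, 8.74 and 13 CPM with siGOLM1-2. The 3 groups overlapped, and the higher control libraries were replicates 1 and 2. Relative to control, CXCL1 had a log2 fold change of -0.09 (SE 0.20, adjusted p = 0.747) with siGOLM1-1, with an interval of -0.50 to 0.32. With siGOLM1-2 it was -0.33 (SE 0.21), with an interval of -0.74 to 0.08, and it ran from -0.68 with control replicates 1 and 2 to 0.13 with replicates 3 and 4.

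CXCL2 was the neutrophil chemokine that rose with siGOLM1-1. It was at 4.08, 3.92, 2.79 and 3.12 CPM in control, 4.11, 5.74, 6.34 and 5.52 CPM with siGOLM1-1, and 7.64, 6.63, 6.24 and 7.93 CPM with siGOLM1-2. Both siRNA groups lay above control, although siGOLM1-1 replicate 1 (4.11) lay just above control replicate 1 (4.08). CXCL2 rose with siGOLM1-1 by 0.64 on the log2 scale (SE 0.16, adjusted p = 0.0048), or 1.56-fold, and the value was 0.44 (adjusted p = 0.0684, the highest over the alternatives, from 0.000432) against control replicates 1 and 2 alone. With siGOLM1-2 it was 1.03 (SE 0.16), or 2.04-fold, and 0.83 or 1.28 with the control pairs.

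CXCL3 was at 4.04, 4.06, 1.86 and 1.77 CPM in control, 3.98, 4.06, 4.46 and 3.85 CPM with siGOLM1-1, and 5.63, 5.58, 5.32 and 6.60 CPM with siGOLM1-2. The siGOLM1-1 libraries were at the level of control replicates 1 and 2 and exceeded replicates 3 and 4, and every siGOLM1-2 library was above both groups. The log2 fold change with siGOLM1-2 was 0.98 (SE 0.24), or 1.97-fold, and 0.51 with control replicates 1 and 2 or 1.69 with replicates 3 and 4. With siGOLM1-1 it was 0.48 (SE 0.24, adjusted p = 0.114), and it passed when control replicate 1 (0.68, adjusted p = 0.0351) or replicate 2 (0.69, adjusted p = 0.0339) was left out. The value ran from 0.01 with control replicates 1 and 2 as the only controls to 1.18 with replicates 3 and 4, and the adjusted p from 6.18e-05 to 0.949 over the alternatives. CXCL2 and CXCL3 share 78 of their 101-base windows, 4.93% of CXCL2 and 3.23% of CXCL3, so that few reads of that length could be split between them.

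The chemokines IL8, CXCL1, CXCL5, CXCL3 and CXCL2 lie in 1 cluster of 9 protein-coding genes on chromosome 4, by the gene order of GRCh38.p14. CXCL6, PF4V1 and PPBP, the cluster's other genes beside PF4, were too low to be tested. PF4, platelet factor 4, had a log2 fold change of -0.29 with siGOLM1-1 (adjusted p = 0.375) and 0.03 with siGOLM1-2 (adjusted p = 0.947), and neither passed. With siGOLM1-2 the genes of the cluster thus ranged from -0.33 for CXCL1 to 2.62 for CXCL5.

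**Figure D2:**
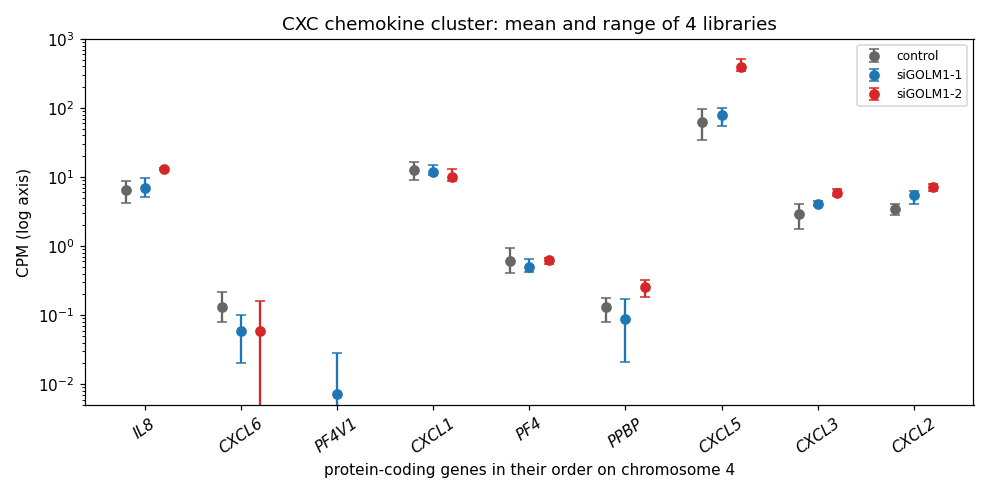
The plot shows the 9 protein-coding genes in their order along chromosome 4, with the mean CPM of 4 libraries per group as a point and the lowest and highest library as a bar, on a log axis; a bar that leaves the axis reaches 0, and a group at 0 has no point. The siGOLM1-2 means of CXCL5, IL8, CXCL3 and CXCL2 are the highest of their genes, and the groups of CXCL1 and PF4 overlap.

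Among the CC chemokines, CCL2 fell with siGOLM1-1 and CCL5 was high with siGOLM1-2. CCL2 was at 12.6, 11.3, 10.5 and 10.1 CPM in control, 1.82, 4.16, 3.58 and 3.24 CPM with siGOLM1-1, and 13.6, 14.8, 10.8 and 31.3 CPM with siGOLM1-2. Every siGOLM1-1 library was below every library of the other groups, and control and siGOLM1-2 overlapped. On the log2 scale CCL2 fell by 1.81 with siGOLM1-1 (SE 0.32, adjusted p = 0.000428), or 3.5-fold lower. It held with either pair of control libraries, at -1.91 and -1.69, and ran from -1.96 to -1.60 over the fits that left out 1 library. With siGOLM1-2 it was 0.66 (SE 0.30), and 0.23 without replicate 4. Of 6 fibroblast markers, 4 could be tested, and 0 rose and 2 fell with siGOLM1-1, beside 23.7% and 23.8% of all genes tested. With siGOLM1-2, 2 rose and 1 fell, beside 21.8% and 23.2%. The 1 that fell did not pass without control replicate 2 or siGOLM1-2 replicate 4, or with control replicates 3 and 4 alone. LUM fell with siGOLM1-1 (-1.69, adjusted p = 0.00135) and rose with siGOLM1-2 (1.06, adjusted p = 0.0127), as did COL3A1 (-1.39, adjusted p = 0.0288, and 1.81, adjusted p = 0.00441). COL3A1 did not pass with siGOLM1-1 without control replicate 1 (-1.22) or 2 (-1.24) or without siGOLM1-1 replicate 2 (-1.16), 3 (-1.20) or 4 (-1.23), or with control replicates 3 and 4 alone (-0.86), and with siGOLM1-2 it did not pass with control replicates 1 and 2 alone (1.43). The 6 fibroblast markers, none at 0, summed to 34.2 to 74.9 CPM in control, 48.9 to 93.9 with siGOLM1-1 and 27.2 to 40.4 with siGOLM1-2, and their part in the CCL2 values was not tested.

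CCL5 was at 0.5, 0.192, 0.0635 and 0.0805 CPM in control, 0.242, 0.245, 0.0608 and 0.212 CPM with siGOLM1-1, and 4.66, 5.53, 5.65 and 7.75 CPM with siGOLM1-2. Control and siGOLM1-1 overlapped, at 3 to 25 reads per library, and the siGOLM1-2 libraries held 231 to 390 reads. The log2 fold change with siGOLM1-2 was 4.79 (SE 0.44), or 27.6-fold, and 4.63 without replicate 4. Control replicates 1 and 2 alone gave 4.04, and replicates 3 and 4 alone gave 6.32. With siGOLM1-1 it was -0.13 (SE 0.56, adjusted p = 0.872), with an interval of -1.25 to 1.00. Of the 101-base windows of CCL5, 6.22% also occur in transcripts of other genes.

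CCL20 was at 0.0600, 0.0240, 0.0847 and 0.0403 CPM in control, 0.128, 0.207, 0.304 and 0.169 CPM with siGOLM1-1, and 0.262, 0.0677, 0.117 and 0.457 CPM with siGOLM1-2. The siGOLM1-1 libraries, with 8 to 15 reads each, were above the control libraries, with 1 to 4 reads, and siGOLM1-2 overlapped both. In a fit without a filter on low counts the log2 fold change was 1.87 with siGOLM1-1 (SE 0.60, adjusted p = 0.0218) and 2.02 with siGOLM1-2 (SE 0.60). The authors' deposited table gave 1.94 and 2.11 for the same comparisons.

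Counted over the 9 genes tested, 1 was called higher with siGOLM1-1 (CXCL2) and 1 lower (CCL2), at an adjusted p under 0.05. Of all genes tested, 23.7% were called higher and 23.8% lower in that comparison, so that the members' share of calls was not above the background. The comparison shares its control libraries with the siGOLM1-2 comparison. With control replicates 1 and 2 alone, 1 of 10 members tested was called, CCL2, and it was lower, beside 7254 of 18198 genes called, 3580 of them lower. With replicates 3 and 4 alone, 6 of 10 were called, 5 higher (IL8, CXCL2, CXCL3, CXCL5 and LIF) and 1 lower (CCL2), beside 7351 of 18206 genes called, 3781 of them higher. The median log2 fold change of the 9 genes was 0.21, against -0.01 over all genes tested.

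With siGOLM1-2, 6 of the 9 genes were called higher (IL6, IL8, CXCL2, CXCL3, CXCL5 and CCL5) and 0 lower, beside 21.8% higher and 23.2% lower of all genes tested. Nothing is read from this count, because results of the same comparison were known when the genes were chosen. The median log2 fold change was 0.98, against -0.01 over all genes tested. With siGOLM1-1 against siGOLM1-2, 0 were called higher and 6 lower (IL6, IL8, CXCL2, CXCL5, CCL2 and CCL5), beside 27.9% higher and 26.5% lower of all genes tested, and nothing is read from this count either. The differences were -3.59 for IL6, -4.91 for CCL5, -2.47 for CCL2, -2.31 for CXCL5, -0.88 for IL8 and -0.39 for CXCL2 on the log2 scale. CXCL2 overlapped between the siRNA groups, and its call was lost under 9 alternatives, among them the replicate block and the fit without siGOLM1-2 replicate 4 (-0.33). CXCL3 (-0.50) did not overlap although it was not called.

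**Figure D3:**
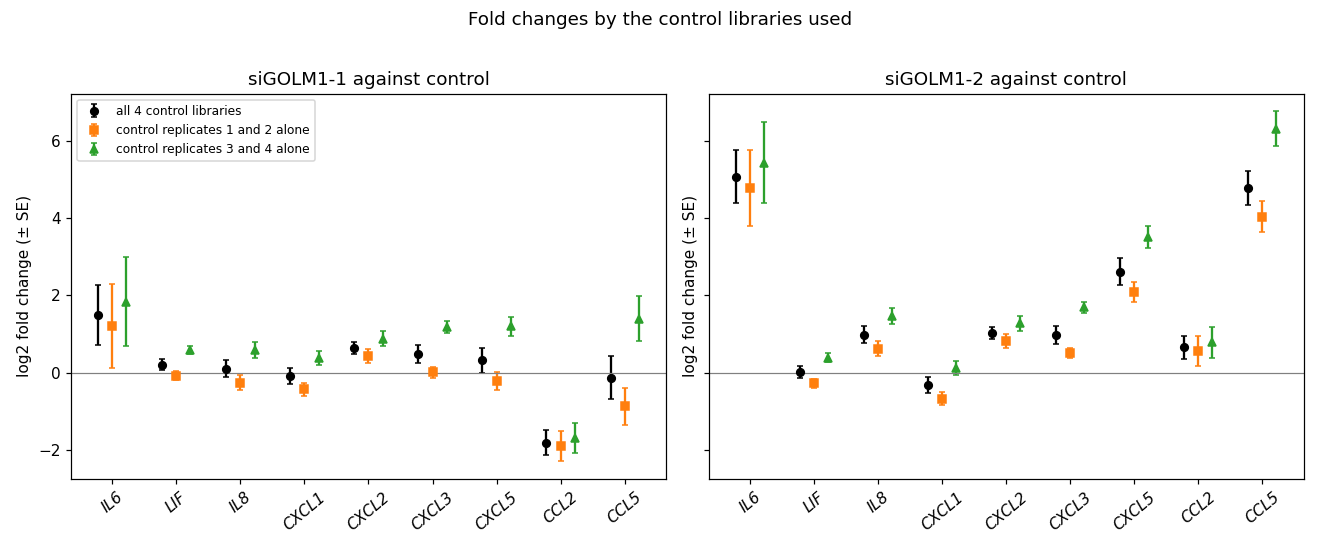
The plot shows the log2 fold change of the 9 tested genes with its SE, for siGOLM1-1 (left) and siGOLM1-2 (right), against all 4 control libraries, control replicates 1 and 2 alone or replicates 3 and 4 alone. With siGOLM1-1, LIF, IL8, CXCL1, CXCL5 and CCL5 lie on different sides of 0 for the control pairs, and the 6 genes called with siGOLM1-2 stay above 0.

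The control pairs differed for most members. The mean of control replicates 1 and 2 was 4.81 times that of replicates 3 and 4 for CCL5, 2.65 times for CXCL5, 2.23 for CXCL3, 1.78 for IL8, 1.73 for CXCL1, 1.57 for LIF and 1.56 for IL6. The ratio was 1.35 for CXCL2, 1.16 for CCL2 and 0.673 for CCL20. The share of all genes tested that differ in this way is not given, so nothing is read from how many members do. FKBP5, PER1 and TSC22D3, which glucocorticoid receptor induces, stood in replicates 1 and 2 at 0.102, 0.103 and 0.295 of their level in replicates 3 and 4. GOLM1 had a ratio of 1.05. The part of the glucocorticoid-induced genes in the members' values was not tested, and the labels name no batch.

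Replicate 4 of siGOLM1-2 was the highest library of its group for 10 of 10 members, tested or not. Over all genes tested it was the highest for 6937 of 17532 (39.6%). The high IL6 level of this library was known when the genes were chosen, so nothing is read from the count. The margin was small for IL8 (13.4 CPM, with the others up to 13.1) and for LIF (64.0, with the others up to 63.7). The level of replicate 4 relative to the mean of the other 3 libraries was 5.39 for IL6, 3.07 for CCL20, 2.40 for CCL2, 1.49 for CXCL5, 1.47 for CCL5 and 1.44 for CXCL1. The ratio was smaller for CXCL3 (1.20), CXCL2 (1.16), IL8 (1.04) and LIF (1.04). The median ratio over all genes tested was 1.01, and 367 genes (2.09%) reached a ratio of 2. Among the NF-kB feedback genes, listed below and also chosen with earlier results known, replicate 4 was the highest for 11 of 11. GOLM1 was at 53.4 CPM in replicate 4 against 44.5 to 47.2 in the others. Without this library the siGOLM1-2 values were 0.97 for IL8, -0.48 for CXCL1, 0.98 for CXCL2, 0.91 for CXCL3, 2.46 for CXCL5 and -0.01 for LIF on the log2 scale.

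Levels of different genes were compared per kilobase of exon. In control the order, from the highest mean, was CXCL5 (24.9 CPM per kb), LIF (15.5), CXCL1 (9.73), CCL2 (5.60), IL8 (2.89), CXCL2 (2.32), CXCL3 (1.32), CCL5 (0.138), IL6 (0.0968) and CCL20 (0.0328). The neighbours CXCL5 and LIF, LIF and CXCL1, IL8 and CXCL2, CCL5 and IL6, and IL6 and CCL20 overlapped between libraries in that order. CCL2 was in place 4 in control, 7 with siGOLM1-1 (1.61 CPM per kb) and 3 with siGOLM1-2 (8.87), and without siGOLM1-2 replicate 4 its mean of 6.58 lay below CXCL1 at 6.95. With siGOLM1-2, CXCL5 stood at 153 CPM per kb and LIF next at 15.6, without overlap. CCL5 (3.90) came next to CXCL2 (4.74), and they overlapped with all libraries but not without replicate 4, at 3.08 to 3.74 against 4.16 to 5.09. The IL6 mean of 3.27 rests on replicate 4, and without it the mean was 1.56 (1.17 to 1.79), below CXCL3 at 2.48.

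By the rule for genes of like pattern, the non-members closest to the mean of the tested members were SELPLG (Pearson r of log2 CPM = 0.988), CPA4 (0.986), PLEKHF1 (0.985), ADAM19 (0.984) and LGI2 (0.982), over 12 libraries. For IL6 alone they were TARSL2 (0.991), BACE2 (0.989), NFE2L3 (0.988), RALA (0.986) and SLC14A1 (0.983). These r values describe libraries that fall into groups, and they were picked as the highest of all genes tested. CPA4, a carboxypeptidase, was at 25 to 89.0 CPM with siGOLM1-2, with replicate 4 the highest, and at 1.67 to 8.34 CPM elsewhere.

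Transcripts of most receptors of these ligands were at or near 0. CXCR1 and CCR6 were at 0 CPM in all libraries, CXCR2 reached 0.102 CPM and CCR2 reached 0.0202. Of 13 receptors and decoy receptors listed, 4 could be tested: 2 rose and 0 fell with siGOLM1-1, and none was called with siGOLM1-2. Beside the counts of this and the following lists, 23.7% of all genes tested were higher and 23.8% lower with siGOLM1-1. With siGOLM1-2 the shares were 21.8% and 23.2%. The lists were chosen with earlier results known, so nothing is read from their counts, and their adjusted p-values are a description. LIFR, the LIF receptor, rose by 0.69 with siGOLM1-1 (SE 0.15, adjusted p = 0.00177), and so did ACKR3, a scavenging receptor, by 1.27 (SE 0.22, adjusted p = 0.000327). LIFR had a value of -0.23 with siGOLM1-2 and passed as lower without its replicate 4 (-0.38). IL6R, the interleukin-6 receptor, was at 6.98 and 7.28 CPM in control replicates 1 and 2 and at 47.2 and 45.4 in replicates 3 and 4, and its log2 fold change was 0.20 with either siRNA (SE 0.54). IL6ST, which encodes gp130, was at 223 to 403 CPM, with values of 0.14 and 0.16 (adjusted p = 0.498 and 0.458).

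Downstream of gp130, STAT3 moved in opposite directions with the 2 siRNAs. It was at 393, 380, 393 and 384 CPM in control, 296, 288, 325 and 262 CPM with siGOLM1-1, and 529, 543, 515 and 612 CPM with siGOLM1-2, and the groups did not overlap. The log2 fold changes were -0.40 (SE 0.08, adjusted p = 0.000736) and 0.51 (SE 0.08, adjusted p = 0.000142), and the difference between the siRNAs was -0.91 (adjusted p = 4.31e-07). JAK1, one of the kinases that bind gp130, fell with siGOLM1-2 (-0.91, adjusted p = 0.000105) and did not pass with siGOLM1-1 (0.22, adjusted p = 0.197). SOCS1, a feedback inhibitor of JAK kinases, rose with siGOLM1-1 (1.40, adjusted p = 0.000145). SOCS3, the feedback inhibitor of gp130, passed with siGOLM1-2 (0.52, adjusted p = 0.0322), but not without control replicate 1 (0.47), control replicate 2 (0.49) or siGOLM1-2 replicate 4 (0.27), or with control replicates 3 and 4 alone (0.40). Of the 8 genes of this list, 1 rose (SOCS1) and 1 fell (STAT3) with siGOLM1-1, beside 23.7% and 23.8% of all genes tested. With siGOLM1-2, 3 rose (JAK2, STAT3 and SOCS3) and 3 fell (JAK1, PTPN11 and PIAS3), beside 21.8% and 23.2% of all genes tested. The count of 1 that rose was 2 without control replicate 1, control replicate 2 or siGOLM1-2 replicate 4, and 3 or 2 with the control pairs, and the count of 3 that rose was 1 without siGOLM1-2 replicate 4.

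Of 14 acute phase genes, known targets of interleukin-6 and STAT3, 8 could be tested. With siGOLM1-2, 4 rose (FGA, FGG, SERPINA1 and LBP) and 0 fell (21.8% and 23.2% of all genes tested), with a median log2 fold change of 0.64. With siGOLM1-1, 2 rose (LBP and LCN2) and 1 fell (SAA1), beside 23.7% and 23.8% of all genes tested, with a median of 0.05. The fibrinogen chain genes FGA (0.65, adjusted p = 0.00345) and FGG (0.86, adjusted p = 0.000157) rose with siGOLM1-2. LCN2, lipocalin-2, rose with siGOLM1-1 (1.68, adjusted p = 6.73e-07), had a value of 0.32 with siGOLM1-2 (0.43 without control replicate 2 and 0.42 without siGOLM1-2 replicate 4, where it passed), and differed between the siRNAs by 1.35 (adjusted p = 2.67e-06). The count of 4 that rose with siGOLM1-2 was 6 against control replicates 1 and 2 and 2 against replicates 3 and 4. SAA1, serum amyloid A1, was at 0.16 and 0.216 CPM in control replicates 1 and 2, at 11 and 10.8 in replicates 3 and 4, and at 0.212 to 0.689 with siGOLM1-1. The siGOLM1-1 libraries thus overlapped the first control pair and lay below the other. SAA1 was not called with siGOLM1-1 without control replicate 4 or siGOLM1-1 replicate 1 or 4. The count of 1 gene of this list that fell with siGOLM1-1 was 0 with the first control pair and 3 with the other.

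Other secreted factors also separated the siRNAs. EBI3, a subunit shared by IL-27 and IL-35, was at 0.865 to 2.92 CPM in control, 2.23 to 3.63 with siGOLM1-1 and 11.5 to 20 with siGOLM1-2. It rose with siGOLM1-2 (2.92, SE 0.34, adjusted p = 2.22e-05) and differed between the siRNAs by -2.28 (adjusted p = 6.76e-05). IL11, a gp130 cytokine, was at 105, 105, 26.5 and 26.2 CPM in control, 130 to 165 CPM with siGOLM1-1 and 38.6 to 46.4 CPM with siGOLM1-2. Its siGOLM1-2 level lay between the control pairs, and the difference between the siRNAs was 1.75 (adjusted p = 0.00269). Against control IL11 passed with siGOLM1-1 (1.12, adjusted p = 0.0335), but not without control replicate 3 or 4 (0.86 each) or without siGOLM1-1 replicate 1 (1.15), 2 (1.12) or 4 (1.05). Among 5 gp130 cytokines tested of 7 listed, 1 was called with siGOLM1-1 (IL11) and 2 with siGOLM1-2 (EBI3 and CTF1), all higher. The latter count was 1 without control replicate 1, 3 or 4 or siGOLM1-2 replicate 2 or 4, and the former was 2 without control replicate 1. With siGOLM1-2, 1 gene of this list was called lower without control replicate 4, siGOLM1-1 replicate 4 or siGOLM1-2 replicate 1.

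The eosinophil chemokines CCL24 and CCL26 had the largest changes of the other chemokines with siGOLM1-2. CCL24 was at 0.0423 to 0.361 CPM in control, 0.0847 to 0.182 with siGOLM1-1 and 3.15 to 3.44 with siGOLM1-2, a log2 fold change of 4.08 (SE 0.40, adjusted p = 3.85e-06) with the latter. Outside siGOLM1-2 its levels were about as low as those of CCL5 and rest on few reads. CCL26 rose with siGOLM1-1 (1.68, adjusted p = 0.00142) and with siGOLM1-2 (3.57, adjusted p = 5.22e-06), and differed between them by -1.89 (adjusted p = 0.000212). Of 15 other CC chemokines, 3 could be tested, and 1 rose with siGOLM1-1 and 2 with siGOLM1-2. Of 12 other CXC and CX3C chemokines, 4 could be tested, and 1 and 2 rose (3 with either siRNA against control replicates 3 and 4 alone). CXCL16, a membrane-bound chemokine, rose with both siRNAs (0.64, adjusted p = 0.000208, and 0.77, adjusted p = 5.76e-05), and CX3CL1, another such chemokine, passed with siGOLM1-2 (1.48, adjusted p = 0.00511).

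Of 20 other inflammatory cytokines and leukocyte growth factors, 9 could be tested. With siGOLM1-1, 2 rose (CSF1 and IL32) and 1 fell (IL15), and with siGOLM1-2, 4 rose (IL1A, IL1B, IL33 and CSF1) and 0 fell. The shares over all genes tested were 23.7% and 23.8% with siGOLM1-1, and 21.8% and 23.2% with siGOLM1-2. IL33, an alarmin, rose with siGOLM1-2 (2.79, adjusted p = 2.06e-06), as did IL1B (2.13, adjusted p = 0.000104), at 0.83 to 1.63 CPM against 0.121 to 0.400 in control. With siGOLM1-1 their values were -0.01 and 0.66 (adjusted p = 0.979 and 0.123; IL1B passed without control replicate 1, at 0.96), and both differed between the siRNAs (-2.80, adjusted p = 6.84e-07, and -1.47, adjusted p = 0.000726). IL15, a growth factor of T and NK cells, fell with siGOLM1-1 (-1.30, adjusted p = 1.84e-06), from 15.6 to 18.3 CPM in control to 5.87 to 8.89. CSF1, the macrophage growth factor, rose with siGOLM1-1 (1.20, adjusted p = 0.000271). In 4 of the fits that left out 1 library (control replicate 1, control replicate 2, siGOLM1-1 replicate 1 or siGOLM1-2 replicate 4), 1 gene of this list was also called lower with siGOLM1-2.

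**Figure D4:**
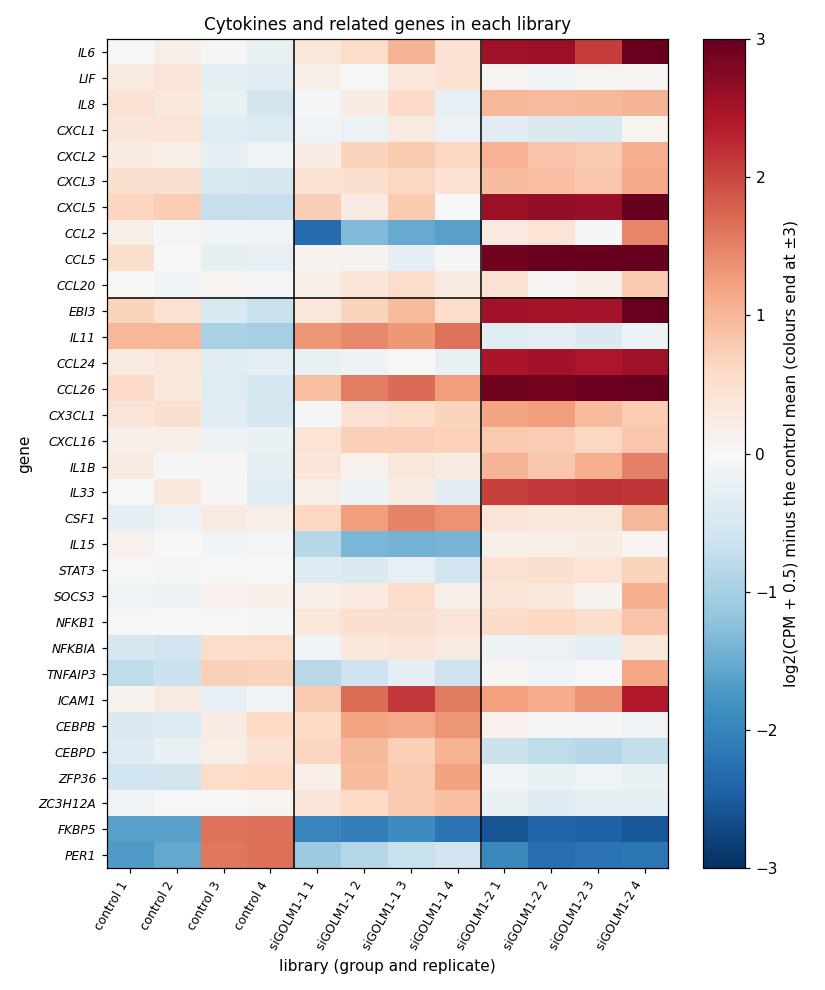
Rows are the 10 genes of the set, above the line, and 22 related genes, and columns are the 12 libraries; the colour is log2(CPM + 0.5) minus the control mean, and it ends at 3 and -3. CCL2 and IL15 are blue in the siGOLM1-1 libraries, and FKBP5 and PER1 divide the control libraries. CCL5, CXCL5, EBI3, CCL24 and IL33 are among the rows that are strongly red in the siGOLM1-2 libraries.

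Among 17 transcription factors known to act on cytokine promoters, 10 rose and 1 fell (RELA) with siGOLM1-1, and 9 rose and 3 fell (NFKBIZ, BCL3 and CEBPD) with siGOLM1-2. Beside these counts, 23.7% of all genes tested rose and 23.8% fell with siGOLM1-1, and 21.8% and 23.2% with siGOLM1-2. NFKB1, the p50 subunit of NF-kB, rose by 0.43 (adjusted p = 0.000376) with siGOLM1-1 and by 0.66 (adjusted p = 1.4e-05) with siGOLM1-2. IRF7, an interferon regulatory factor, rose by 1.41 and 1.64 (adjusted p = 3.09e-05 and 1.13e-05). ATF3, a stress-induced factor, rose by 2.80 (adjusted p = 1.02e-05) with siGOLM1-1. CEBPD, an acute phase transcription factor, rose with siGOLM1-1 (0.82, adjusted p = 0.000618) and fell with siGOLM1-2 (-0.78, adjusted p = 0.000983), a difference of 1.60 (adjusted p = 1.62e-06). CEBPB rose with siGOLM1-1 (1.02, adjusted p = 0.00152) and was at -0.08 with siGOLM1-2. The count of 1 that fell with siGOLM1-1 was 2 without siGOLM1-1 replicate 4.

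Of 11 NF-kB inhibitors and other NF-kB target genes, 3 rose (ICAM1, TNFAIP2 and SOD2) and 0 fell with siGOLM1-1, and 8 rose and 0 fell with siGOLM1-2. Again, 23.7% of all genes tested rose and 23.8% fell with siGOLM1-1, and 21.8% and 23.2% with siGOLM1-2. ICAM1, an adhesion molecule, was at 0.931 to 1.54 CPM in control and rose by 1.95 (adjusted p = 0.00077) and 1.96 (adjusted p = 0.000808). TNFAIP2 rose by 1.11 (adjusted p = 1.78e-06) and 0.60 (adjusted p = 0.000401). NFKBIA, the inhibitor IkB-alpha, averaged lower in control replicates 1 and 2 (72.3 and 69.7 CPM) than in replicates 3 and 4 (150 and 151 CPM). Its log2 fold change with siGOLM1-2 was -0.16 (adjusted p = 0.629), 0.48 against the former pair and -0.58 against the latter. TNFAIP3, the deubiquitinase A20, had values of -0.77 (adjusted p = 0.104) and 0.21 (adjusted p = 0.672), and with siGOLM1-1 it passed as lower without control replicate 1 (-0.99). The count of 8 was 4 against control replicates 3 and 4 alone. With siGOLM1-1, 1 or 2 genes of the list were called lower in 5 of the fits that left out 1 library (control replicate 1 or 2, siGOLM1-1 replicate 3 or 4, or siGOLM1-2 replicate 4).

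Of 12 genes for proteins that bind or cut cytokine mRNAs, 6 rose and 4 fell (HNRNPD, TIAL1, ELAVL1 and RC3H2) with siGOLM1-1. With siGOLM1-2, 2 rose (RC3H2 and ARID5A) and 5 fell (ZFP36L2, ZC3H12A, HNRNPD, ELAVL1 and KHSRP). The shares over all genes tested were 23.7% higher and 23.8% lower with siGOLM1-1, and 21.8% and 23.2% with siGOLM1-2. ZC3H12A, the endonuclease Regnase-1 that cuts IL6 mRNA, was at 23.0 to 26.5 CPM in control, 32.9 to 47.1 with siGOLM1-1 and 18.9 to 21.6 with siGOLM1-2. It rose by 0.69 with siGOLM1-1 (adjusted p = 7.67e-05) and differed between the siRNAs by 0.99 (adjusted p = 2.18e-06). ZFP36L2, which binds AU-rich elements, rose with siGOLM1-1 (0.67, adjusted p = 0.000162) and fell with siGOLM1-2 (-0.60, adjusted p = 0.000439). HNRNPD, or AUF1, fell with both (-0.76, adjusted p = 1.4e-06, and -0.57, adjusted p = 2.54e-05). The count of 5 that fell with siGOLM1-2 was 3 without control replicate 2, control replicate 4 or siGOLM1-2 replicate 2, and the count of 2 that rose was 1 without control replicate 3 or 4 or siGOLM1-2 replicate 2 or 3. The count of 4 that fell with siGOLM1-1 was 2 against control replicates 3 and 4 alone. With siGOLM1-2 the counts were 1 up and 3 down with control replicates 1 and 2, and 3 and 4 with replicates 3 and 4.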

How the data were processed

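Per the submitters' processing notes, the authors used bcl2fastq 2.20, STAR 2.7.3, hg19 and DESeq2 1.24.0; the counting program, its annotation and its use of strand were not given in the sources used. Libraries came from a stranded mRNA kit with paired-end reads, per the labels' protocols. The deposited counts are whole reads per gene, with no count for 24653 of 57773 genes. Per the file headers, the authors' deposited result tables hold a p-value and its adjusted value, a Wald statistic (a score), log2 fold changes with SE, and a signal averaged over normalised libraries; they were used for CCL20 only.

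Counts were tested in edgeR 4.0.16 (R 4.3.3, limma 3.58.1): filterByExpr, TMM, and 1 robust quasi-likelihood fit of all 12 libraries with 9 residual degrees of freedom. Adjusted p-values are Benjamini-Hochberg over 17532 genes, called under 0.05, and each adjusted p in the report comes from this test unless stated. SE is the absolute log2 fold change divided by the root of F, with n = 4 libraries per group. The scripts were tested on simulated counts. The fit treats control libraries as independent although they deviated in pairs, so p-values against control may be too small. Alternatives were DESeq2 1.42.0, other scalings and filters, only the groups compared, the replicate block, each control pair alone, and leaving out each library.

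The 10 genes and the lists of related genes were chosen with earlier results of these data known. The adjusted p-values of related genes thus describe them and are no independent support. Named related genes are the 2 with the smallest p of each list in each comparison with control, plus IL6R, IL6ST, LIFR, CXCR1, CXCR2, CCR2, CCR6, STAT3, SOCS3, NFKBIA, TNFAIP3, CEBPB, CEBPD, ZFP36, ZC3H12A, FKBP5 and PER1, and 1 gene that is not reported here; TSC22D3, CDKN2A and PF4, and genes named to spell out a count of 5 or fewer, were named outside the rule after their values were seen. Exon lengths and shared 101-base windows came from GENCODE 29, with CCL5 matched by symbol. Levels per kilobase without siGOLM1-2 replicate 4 were an alternative added after seeing the data. Each interval given runs from 2 SE below the log2 fold change to 2 SE above it, and its coverage was not computed.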

Additional observations from a re-analysis of the deposited data

Results flagged for a closer look

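In 30 groups of 4 libraries, 1 for each of the 10 genes in each of the 3 conditions, a library was looked for that lay apart from its group by Dixon's ratio. Chance flags about 1 in 20 groups. Of the 5 found, 3 were in siGOLM1-2 replicate 4, whose high IL6 level was known when the genes were chosen, so that nothing is read from their number. With siGOLM1-2, replicate 4 lay apart for IL6 at 17.4 CPM (the others were at 2.43 to 3.71), for CXCL1 at 13 CPM (8.74 to 9.44) and for CXCL5 at 518 CPM (340 to 352). Replicate 2 of the same group lay apart for LIF, at 56.7 CPM. With siGOLM1-1, replicate 3 lay apart for CXCL1, at 14.8 CPM against 10.7 to 11.2.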

How the results depend on the processing

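The number of members called with siGOLM1-1 against control (2) moved with the control libraries: it was 1 with control replicates 1 and 2 as the only controls and 6 with replicates 3 and 4. The counts over all genes tested and the other counts of members called stayed within 1.5 times the value in the report under each alternative. Counts of the lists of related genes moved more, and only some of these moves are given beside them. With siGOLM1-2, 1 receptor was called higher against either control pair. Against control replicates 3 and 4 alone, 2 NF-kB inhibitors or target genes were called lower with siGOLM1-1 and 1 with siGOLM1-2. Leaving out 1 library at a time gave 7472 to 8700 genes and 2 to 3 members with siGOLM1-1, 6904 to 8329 genes and 6 to 8 members with siGOLM1-2, and 8630 to 9614 genes and 5 to 6 members between the siRNAs. Correlations between the deviations of same-numbered libraries from their groups ran from -0.255 to 0.426. With 4 libraries per group these cannot show whether the numbers pair the libraries, and the labels do not state it. With the replicate block 8389, 7929 and 9613 genes and 2, 6 and 5 members were called. Scaling by library totals alone moved the split of calls with siGOLM1-2 from 3814 higher and 4071 lower to 4682 and 3233, and that between the siRNAs from 4887 and 4654 to 3564 and 5957. Among genes named and called in either fit, directions turned for PER1 with siGOLM1-1 (0.86 against control replicates 1 and 2 alone), for NFKBIA with siGOLM1-2 (0.48, the same controls) and for IL11 with siGOLM1-2 (0.71 against replicates 3 and 4 alone); the cause was not tested. Values of members that were not called in the report also changed sign between the control pairs: LIF, IL8, CXCL1, CXCL5 and CCL5 with siGOLM1-1, and LIF and CXCL1 with siGOLM1-2. CXCL2 between the siRNAs, at the edge of the threshold, lost its call under 9 alternatives. IL6, CCL5 and CCL24 rest on few reads outside siGOLM1-2, and CCL20 in all 3 groups, which limits fold changes against control. The 4 libraries per group of 1 cell line limit all intervals.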
